A study of Mus musculus with 8 samples.

Results

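The CC chemokine genes were represented by 10 genes: Ccl1, Ccl2, Ccl3, Ccl4, Ccl5, Ccl6, Ccl7, Ccl9, Ccl17 and Ccl22. Every probe carrying one of these symbols was taken, which gave 11 probes, since Ccl4 had 2, out of 25697 probes for 18138 symbols on the array. All 11 probes were detected on enough arrays to be tested. RNA was measured on 8 Illumina MouseRef-8 bead arrays, which give the fluorescence intensity of each probe. The cells were bone marrow-derived macrophages of female C57bl/6J mice aged 8 weeks, either wild type (WT) or iNOS deficient (labelled iNOSKO, here iNOS-/-), and all had grown in GM-CSF for 7 days. The strain name that the methods give for the iNOS-/- mice holds a second strain besides C57bl/6J. Each genotype was measured without stimulation and after M1 stimulation, which made 4 groups of 2 arrays. M1 cells had been stimulated for 6 h with 200 ng/ml LPS and 10 ng/ml IFN-γ, and the unstimulated cells had not. The deletion was carried by all cells of the iNOS-/- mice, not by macrophages only, and GM-CSF cultures of bone marrow are known to hold dendritic cells and granulocytes besides macrophages. The labels do not say that the 2 arrays of a group came from separate mice or cultures, so the p-values measure the spread between arrays, which may be technical.

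CC chemokines are small secreted proteins whose leading conserved cysteines lie side by side, and they steer leukocytes by binding G-protein-coupled CCR receptors. Macrophages and dendritic cells are a main source of them. LPS, through TLR4 and NF-κB, and IFN-γ, through STAT and IRF factors, are known inducers of many of their genes. Ccl2 and Ccl7 are ligands of CCR2 and draw monocytes. Ccl3, Ccl4 and Ccl5 draw monocytes, T cells and NK cells. Ccl6 and Ccl9 are ligands of CCR1 made by myeloid cells of rodents, Ccl17 and Ccl22 are the ligands of CCR4 and draw T cells, and Ccl1 is the ligand of CCR8.

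The members lie in 2 places in the mouse genome (GRCm38.p6, RefSeq), of which one is on the chromosome of Nos2, the targeted gene (chr11:78920787-78960226). 8 of the 10 genes are on chromosome 11, between 3.075 and 4.688 Mb beyond the end of Nos2. Ccl2 (chr11:82035577-82037452), Ccl7 (chr11:82045712-82047525) and Ccl1 (chr11:82176666-82179812) form one group there. Ccl5 (chr11:83525778-83530518), Ccl9 (chr11:83572917-83578636), Ccl6 (chr11:83587886-83593087), Ccl3 (chr11:83647843-83649378) and Ccl4 (chr11:83648624-83664683) form the other. The Ccl4 interval as annotated begins inside that of Ccl3, and its distance from Nos2 refers to that annotated start. Ccl22 (chr8:94745684-94751388) and Ccl17 (chr8:94809380-94812038) are neighbours on chromosome 8. The methods name the strain of the iNOS-/- mice but do not describe how it was made or bred. DNA of that second strain that may still flank Nos2 and the loss of iNOS cannot be told apart for genes this close to it.

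**Figure D1:**
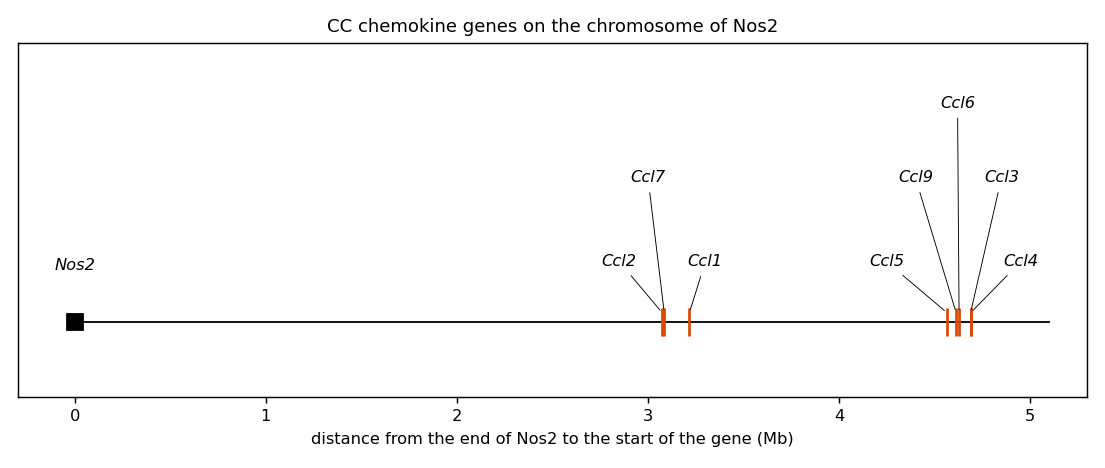
Position of the 8 CC chemokine genes of chromosome 11 (orange ticks) as the distance in Mb from the end of Nos2 (black square) to the start of each gene. 3 genes lie between 3.075 and 3.216 Mb from Nos2 and 5 between 4.566 and 4.688 Mb.

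Promoter sequence (RefSeq, GRCm38.p6) was at hand for 6 of the 10 genes. The 140 bases before the transcription start are shown, 5′ to 3′ along the gene, for the members on which the comparisons below turn most and for those that hold a motif searched for. Capitals mark matches to the NF-κB consensus, to the STAT site TTCNNNGAA or to TATAAA, each searched on both strands.
Ccl1, chr11:82179813-82179952, minus strand: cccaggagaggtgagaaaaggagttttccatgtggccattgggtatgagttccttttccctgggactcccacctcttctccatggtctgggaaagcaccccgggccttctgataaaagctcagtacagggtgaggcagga
Ccl3, chr11:83649379-83649518, minus strand: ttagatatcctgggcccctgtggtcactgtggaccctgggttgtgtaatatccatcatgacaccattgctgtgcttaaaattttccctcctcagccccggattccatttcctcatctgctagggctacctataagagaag
Ccl9, chr11:83578637-83578776, minus strand: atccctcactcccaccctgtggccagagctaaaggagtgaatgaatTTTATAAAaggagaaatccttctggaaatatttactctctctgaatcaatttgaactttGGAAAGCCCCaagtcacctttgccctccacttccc
Ccl17, chr8:94810313-94810452, plus strand: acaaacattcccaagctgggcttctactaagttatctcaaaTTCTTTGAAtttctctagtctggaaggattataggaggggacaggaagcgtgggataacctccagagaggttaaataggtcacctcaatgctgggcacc
Ccl22, chr8:94745544-94745683, plus strand: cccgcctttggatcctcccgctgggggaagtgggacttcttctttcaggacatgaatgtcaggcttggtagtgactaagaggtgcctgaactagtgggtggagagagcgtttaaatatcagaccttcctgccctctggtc
For Ccl17 the start in the promoter table lies inside the gene interval given above, which begins upstream of it, so that its positions refer to that start. In Ccl17 the STAT-type site TTCTTTGAA spans bases -99 to -91, counted back from the start. In Ccl9 an NF-κB consensus match lies on the opposite strand at -35 to -26, and TATAAA at -92 to -87 overlaps a match on the opposite strand at -94 to -89. Over the 250 bases before the start, each motif, and the IRF core AANNGAAA, which overlaps none of these matches, occurred in 1 of the 6 member promoters (the IRF core in Ccl3 at -219 to -212). Among 32851 promoters of the same length, the NF-κB consensus occurred in 3.9%, the STAT site in 7.02%, the IRF core in 21.3% and TATAAA in 12.4%. These matches describe letters and not bound sites, and a promoter without one may hold other forms of a site.

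Between 46 and 49.3% of probes were detected per array (detection p under 0.05), and the number of arrays, not counting error, limits the precision. Nos2 itself was not detected on the 4 unstimulated arrays. It read 177 and 132 on the WT M1 arrays and 180.3 and 204 on the iNOS-/- M1 arrays (log2 difference 0.32 ± 0.32, SE, adjusted p = 0.445), so the probe did not separate the genotypes. The sources used here do not say which part of Nos2 was deleted, and a probe outside that part checks nothing. The genotype is therefore that of the labels throughout.

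The levels of the 10 genes by array are shown as log2 intensity, after scaling the arrays to each other and setting values under 1 to 1.

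**Figure D2:**
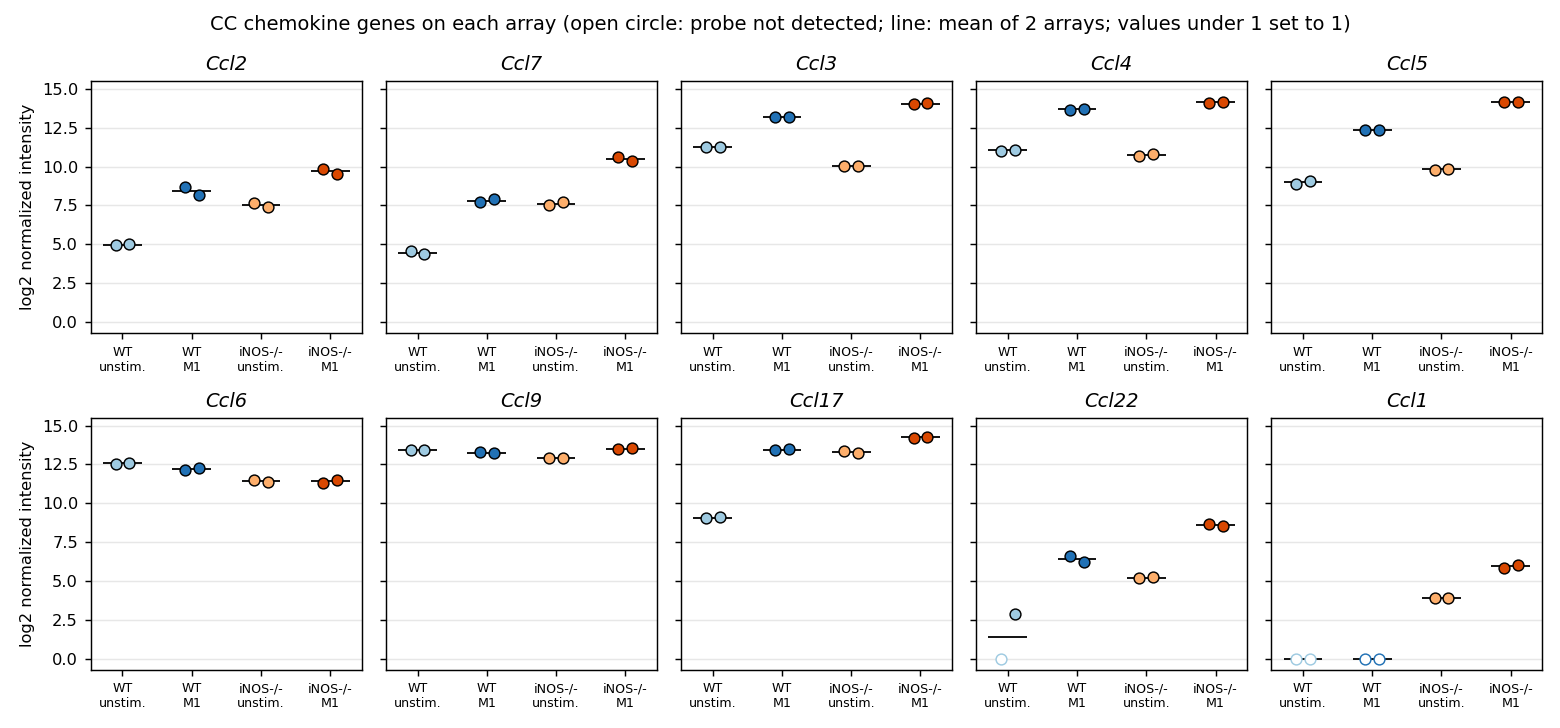
log2 normalized intensity of each CC chemokine gene (for Ccl4 the brighter probe) on each array, by group. Circles are arrays, open where the probe was not detected, and lines are means of 2 arrays. For 9 of the 10 genes the iNOS-/- M1 arrays are the highest, while Ccl6 is highest in WT unstimulated cells and Ccl9 covers the narrowest range.

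The first question was how the genes differed between the genotypes after M1 stimulation. 8 of the 10 genes were higher in the arrays labelled iNOS-/- M1 than in those labelled WT M1, Ccl6 was lower, and Ccl22 did not pass the test. The 8 include Ccl1, which entered the test only through its detection on the iNOS-/- arrays. A gene was called at an adjusted p under 0.05 in limma, with adjustment over 13868 probes. The background in this comparison was high: 48.2% of all tested probes were called, 22.9% as higher and 25.3% as lower. The arrays of the 2 groups did not overlap for any of the 10 genes, nor for 74.8% of all tested probes. The median log2 difference was 1.07 over the members and -0.03 over all tested probes. In RNA from a mixed culture, fewer cells of a type and less RNA per cell cannot be told apart.

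The CCR2 ligands differed by more than the spread between arrays. Ccl2, the main monocyte attractant, read 405 and 286 in WT M1 and 936 and 742 in iNOS-/- M1. The pairs did not overlap, although the WT pair was spread more widely than that of most members. Its log2 difference was 1.29 ± 0.22 (SE, n = 2 arrays per group, adjusted p = 0.00599 in limma), or 2.45-fold. Ccl7, which shares CCR2, read 211 and 238 against 1572 and 1333. This was a log2 difference of 2.69 ± 0.14 (adjusted p = 0.000231), or 6.47-fold, and the largest among the members detected in both groups that were called.

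Ccl3, Ccl4 and Ccl5 were among the brightest probes in M1 cells. Ccl5, also known as RANTES, read 5261 and 5322 in WT M1 and 18592 and 18547 in iNOS-/- M1. The arrays of each pair were close together and the log2 difference was 1.81 ± 0.10 (adjusted p = 0.000229), or 3.51-fold. Ccl3, the macrophage inflammatory protein 1α, read 9418 and 9359.6 against 16565 and 17124, a log2 difference of 0.84 ± 0.07 (adjusted p = 0.000738). The brighter probe of Ccl4, the macrophage inflammatory protein 1β, read 12752 and 13331 against 17361 and 18396. Its log2 difference was 0.45 ± 0.08 (adjusted p = 0.00834), but under quantile normalization it was 0.03 with no call (adjusted p from 8.53e-05 to 0.83 over 17 alternatives). The dimmer Ccl4 probe read 3160.3 and 3113 against 3627 and 4312, a log2 difference of 0.33 ± 0.11 that did not pass the test (adjusted p = 0.0505; 0.0238 without the first iNOS-/- M1 array).

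The CCR4 ligands were both higher in every iNOS-/- M1 array than in any WT M1 array. Ccl17 read 10966 and 11479 in WT M1 and 18992 and 19646 in iNOS-/- M1, a log2 difference of 0.78 ± 0.09 (adjusted p = 0.00172), or 1.72-fold. Ccl22 was far dimmer, at 97.6 and 73.8 against 408 and 380.2. Its log2 difference of 2.21 ± 0.89 (95% confidence interval -0.03 to 4.46) was not called (adjusted p = 0.0937). The error came from the shared estimate of spread: in WT unstimulated cells one array read 7.23 and the other did not detect the probe. With the M1 arrays alone the adjusted p was 0.0102, without either WT unstimulated array it was 0.00184, and over 17 alternatives it ran from 1.31e-06 to 0.256.

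Ccl1, the CCR8 ligand, was not detected on any of the 4 WT arrays and was detected on all 4 iNOS-/- arrays, at 57.6 and 65.2 in M1 cells. Set against the dimmest detected signal of the WT M1 arrays, it was at least 8.94-fold higher in iNOS-/- M1. The limma call (adjusted p = 3.2e-05) belongs to the difference from WT values set to 1, not to this bound. Those WT values added no spread to the test. Ccl1 also entered the test only through the iNOS-/- arrays, where it was high, so the call adds nothing to the detection pattern. The bound rests on the rank-invariant scale: the log2 difference was 2.11 under neqc (a background model followed by quantile normalization) and 1.94 with a floor of 16, both called but below the bound of 3.16 in log2.

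The CCR1 ligands went apart. Ccl6 read 4603 and 4867 in WT M1 and 2508 and 2927 in iNOS-/- M1, a log2 difference of -0.80 ± 0.11 (adjusted p = 0.00296), or 1.75-fold lower. Ccl9 read 9922 and 9726 against 11519 and 11924, which is a log2 difference of 0.25 ± 0.08 (adjusted p = 0.041). That call did not last: it was lost when any one of the 8 arrays was left out, and under quantile normalization the value was -0.19 (adjusted p from 0.00155 to 0.133 over 17 alternatives).

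**Figure D3:**
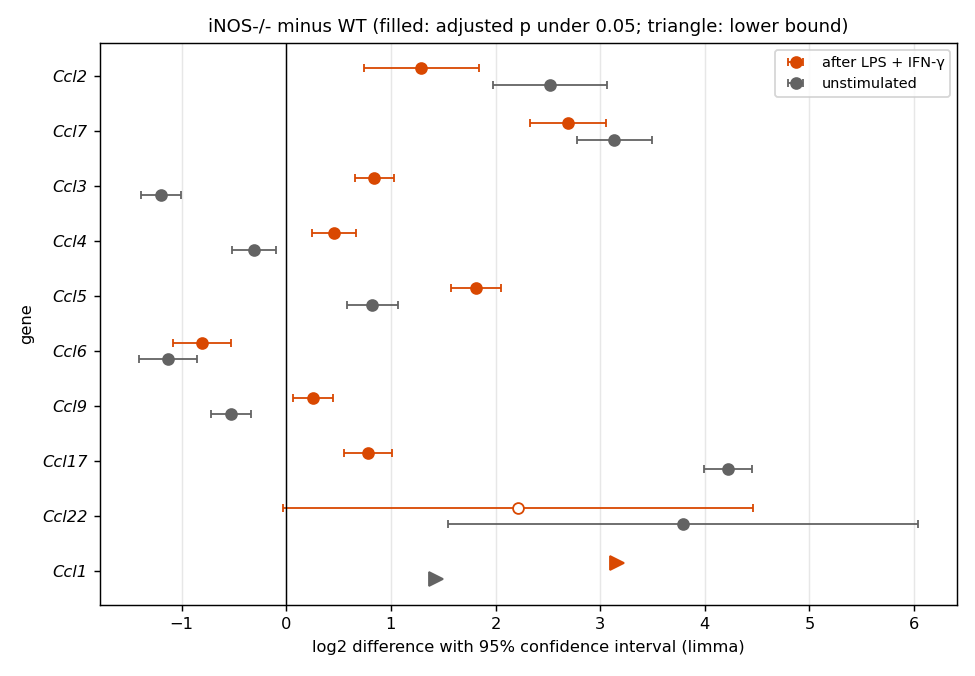
log2 difference, iNOS-/- minus WT, for each gene after stimulation (orange) and without it (grey), with 95% confidence intervals from limma (n = 2 arrays per group). Filled symbols passed adjusted p under 0.05, and triangles for Ccl1 mark lower bounds (3.16 and 1.43 in log2), since WT arrays did not detect it. Ccl3, Ccl4 and Ccl9 lie on opposite sides of 0 in the M1 and unstimulated comparisons, and Ccl6 lies below 0 in both.

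The next comparison asked whether the genotypes already differed before stimulation. In unstimulated cells 6 of the 10 genes were higher in iNOS-/- cells (Ccl1, Ccl2, Ccl5, Ccl7, Ccl17 and Ccl22) and 4 were lower (Ccl3, Ccl4, Ccl6 and Ccl9). Ccl1 was again tested only through its detection on the iNOS-/- arrays. Of all tested probes, 32.2% were called, 16.7% as higher and 15.4% as lower. The groups did not overlap for any of the 10 genes, nor for 69.8% of all tested probes. The median log2 difference was 1.67 over the members (1.13 with Ccl1 at its bound) and 0 over all tested probes.

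Among the members detected on all 4 of these arrays, Ccl17 had the largest difference. It read 530.0 and 555 on the WT arrays and 10651 and 9629 on the iNOS-/- arrays, a log2 difference of 4.22 ± 0.09 (adjusted p = 2.6e-05), or 18.7-fold. The unstimulated iNOS-/- level thus lay just under that of WT M1 cells, at 10966 and 11479; that neighbouring pair was not tested. Ccl22 read 36.6 and 38 in iNOS-/- cells, while in WT cells it was detected on 1 of 2 arrays, at 7.23. Its log2 difference was 3.79 ± 0.89 (adjusted p = 0.0271), a call that was lost on the unstimulated arrays alone and without any one array of the other 3 groups (adjusted p from 4.49e-05 to 0.105 over 17 alternatives). Its size also moved: it was 2.37 without the first and 5.22 without the second WT unstimulated array, 2.27 with an intercept in the scaling line, 1.29 under neqc and 1.22 with a floor of 16.

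Ccl7 and Ccl2 followed. Ccl7 read 23.7 and 20.7 in WT and 182 and 208 in iNOS-/- cells, a log2 difference of 3.14 ± 0.14 (adjusted p = 0.000165), or 8.79-fold. Ccl2 read 30.8 and 32.7 against 199.5 and 166, a log2 difference of 2.52 ± 0.22 (adjusted p = 0.00114), or 5.74-fold. For both genes the unstimulated iNOS-/- arrays stayed below the WT M1 arrays. For Ccl7 that gap, from 208 to 211, was smaller than the distance between arrays of either group.

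Of Ccl3, Ccl4 and Ccl5, the last was higher, at 480.2 and 541 in WT and 871 and 933 in iNOS-/- cells (log2 difference 0.82 ± 0.10, adjusted p = 0.0029). Ccl3 was lower, at 2454 and 2432 against 1072 and 1063, a log2 difference of -1.19 ± 0.07 (adjusted p = 0.000435), or 2.29-fold. The brighter Ccl4 probe read 2086 and 2162 against 1678 and 1759 (log2 difference -0.31 ± 0.08, adjusted p = 0.0438). The dimmer one read 285 and 278 against 220.4 and 215 (log2 difference -0.37 ± 0.11, adjusted p = 0.051) and was not called. The Ccl4 call was lost when any one of the 8 arrays was left out (adjusted p from 0.0027 to 0.289 over 17 alternatives).

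Both CCR1 ligands were lower in unstimulated iNOS-/- cells. Ccl6 read 5911 and 6249 in WT and 2875 and 2687 in iNOS-/- cells (log2 difference -1.13 ± 0.11, adjusted p = 0.00168). Ccl9 read 11117 and 10845 against 7553 and 7685 (log2 difference -0.53 ± 0.08, adjusted p = 0.0059). Ccl1 read 15 and 15.3 in iNOS-/- cells and was undetected in WT, at least 2.69-fold higher. Raising the floor to 16 removed this difference because both levels then lay at the floor. Here too the limma call (adjusted p = 3e-05) was against WT values set to 1, which added no spread. The gene was again tested only through its iNOS-/- arrays. Under neqc the log2 difference was 0.82, called but below the bound of 1.43 in log2.

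M1 stimulation was then compared with no stimulation within each genotype. In WT cells 7 of the 10 genes rose (Ccl2, Ccl3, Ccl4, Ccl5, Ccl7, Ccl17 and Ccl22), none fell, Ccl6 and Ccl9 did not pass the test, and Ccl1 stayed undetected. In iNOS-/- cells 9 of the 10 rose and Ccl6 did not pass. The background in WT was 35.1% of probes called, 20.8% as higher and 14.3% as lower, and in iNOS-/- it was 50.3%, with 25.2% as higher and 25.1% as lower. Stimulated and unstimulated arrays did not overlap for 9 of the 10 genes in each genotype, against 71.3% of all tested probes in WT and 77.2% in iNOS-/-. The median log2 response was 2.98 over the members and 0.09 over all probes in WT, and 2.54 and 0.00 in iNOS-/-.

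In WT cells Ccl17 rose by a log2 difference of 4.37 ± 0.09 (adjusted p = 1.8e-05), or 20.7-fold, and Ccl22 by 4.98 ± 0.89 (adjusted p = 0.0109) from a level near the detection limit. The Ccl22 call was lost without the first WT M1 array (adjusted p = 0.0564) and on the WT arrays alone (adjusted p = 0.0602). The Ccl22 value was 3.55 or 6.41 without the first or the second WT unstimulated array, 2.14 under neqc and 2.41 with a floor of 16. Ccl2, Ccl5 and Ccl7 rose by similar amounts, with log2 differences of 3.42 ± 0.22, 3.38 ± 0.10 and 3.34 ± 0.14 (adjusted p = 0.000388, 3.9e-05 and 0.000113). Ccl3 rose by 1.94 ± 0.07 (adjusted p = 8.5e-05). For Ccl4 the brighter probe gave 2.62 ± 0.08 and the dimmer 3.48 ± 0.11 (adjusted p = 5.3e-05 and 4.6e-05), so that the probes of 1 gene differed in size but not in direction. Ccl6 had a log2 difference of -0.36 ± 0.11 (adjusted p = 0.0554, and 0.0439 without either iNOS-/- M1 array) and Ccl9 of -0.16 ± 0.08 (adjusted p = 0.164).

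In iNOS-/- cells the order was different. Ccl5 rose by a log2 difference of 4.36 ± 0.10 (20.6-fold, adjusted p = 1.5e-05), and Ccl3 by 3.98 ± 0.07 (15.8-fold, adjusted p = 1.5e-05). The Ccl4 probes rose by 3.38 ± 0.08 and 4.18 ± 0.11 (adjusted p = 1.9e-05 and 2.1e-05). Ccl22 had a log2 difference of 3.40 ± 0.89 (adjusted p = 0.0253, lost without any one of the 4 iNOS-/- arrays), Ccl7 of 2.89 ± 0.14 (adjusted p = 9.3e-05), Ccl2 of 2.20 ± 0.22 (adjusted p = 0.0008) and Ccl1 of 2.02 ± 0.09 (adjusted p = 7.4e-05). Ccl17, already high, rose by 0.93 ± 0.09 (1.91-fold, adjusted p = 0.00078) and Ccl9 by 0.62 ± 0.08 (adjusted p = 0.00173), although Ccl9 stood at 0.00 under neqc and quantile normalization. The Ccl6 arrays of the 2 iNOS-/- groups overlapped, with a log2 difference of -0.04 (95% confidence interval -0.31 to 0.24, adjusted p = 0.805), but under neqc and quantile normalization the value was -0.63 and was called lower (adjusted p = 0.000373 and 0.00464).

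**Figure D4:**
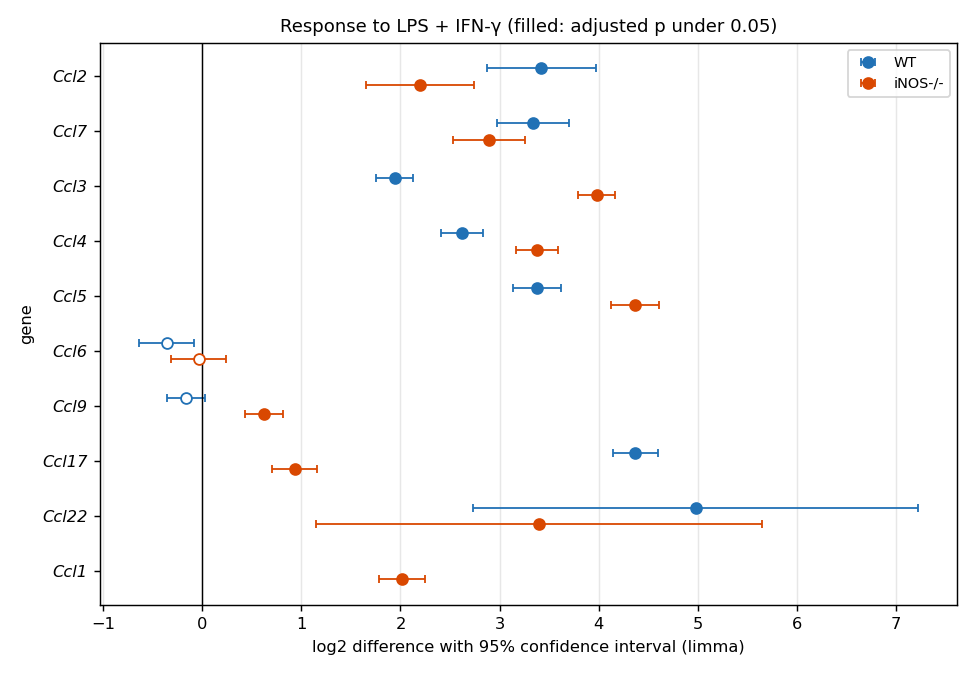
log2 response to LPS plus IFN-γ (M1 minus unstimulated) of each gene in WT (blue) and iNOS-/- cells (orange), with 95% confidence intervals from limma (n = 2 arrays per group). Filled symbols passed adjusted p under 0.05, and Ccl1 has no WT value because it was not detected there. Ccl3 responds by 1.94 in WT and 3.98 in iNOS-/- cells, and Ccl17 by 4.37 and 0.93.

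The difference between these responses was itself tested. The response was larger in iNOS-/- cells for 5 of the 10 genes (Ccl1, Ccl3, Ccl4, Ccl5 and Ccl9), smaller for Ccl2 and Ccl17, and did not differ by the test for Ccl6, Ccl7 and Ccl22. For Ccl1 the WT arrays did not detect the gene, so its value is the iNOS-/- response alone. Of all tested probes, 42.0% were called, 19.4% as larger and 22.6% as smaller. For Ccl17 the difference of the log2 responses was -3.44 ± 0.13 (adjusted p = 0.000148), and for Ccl2 it was -1.23 ± 0.31 (adjusted p = 0.0264). For Ccl3 it was 2.04 ± 0.11 (adjusted p = 0.000305), for Ccl5 0.99 ± 0.13 (adjusted p = 0.00387) and for Ccl9 0.78 ± 0.11 (adjusted p = 0.004). The Ccl4 probes gave 0.76 ± 0.12 and 0.70 ± 0.15 (adjusted p = 0.00592 and 0.0165). Under quantile normalization these values were 0.42 for Ccl5, 0.28 for Ccl9 and 0.16 and 0.25 for the Ccl4 probes, and none was called. The value for Ccl7 was -0.44 (95% confidence interval -0.95 to 0.07) and that for Ccl22 was -1.58 (-4.76 to 1.60), which became -3.01 with a call (adjusted p = 0.00439) without the second WT unstimulated array. These comparisons share arrays: the difference of responses is made of the same 4 group means as the others.

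Some members read close to the brightest probe of their array. On the iNOS-/- M1 arrays Ccl17 reached 79.2 and 78.4% of the brightest deposited intensity, Ccl5 77.5 and 74%, and Ccl3 69 and 68.4%. The brighter Ccl4 probe reached 72.4 and 73.4%, and the dimmer one, with the larger log2 response, 15.1 and 17.2%. Ccl5, among the brightest, had the largest iNOS-/- response of the members (log2 difference 4.36). Whether compression near the top lowered the differences of the bright probes was not tested.

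The choice of normalization also mattered for the bright and little-changing genes. Quantile normalization, alone or within neqc, gives all arrays the same distribution of values. Under both, the log2 difference between the M1 groups was 0.48 for Ccl3 and 0.41 for Ccl17, and the iNOS-/- response of Ccl17 was 0.45, all called.

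**Figure D5:**
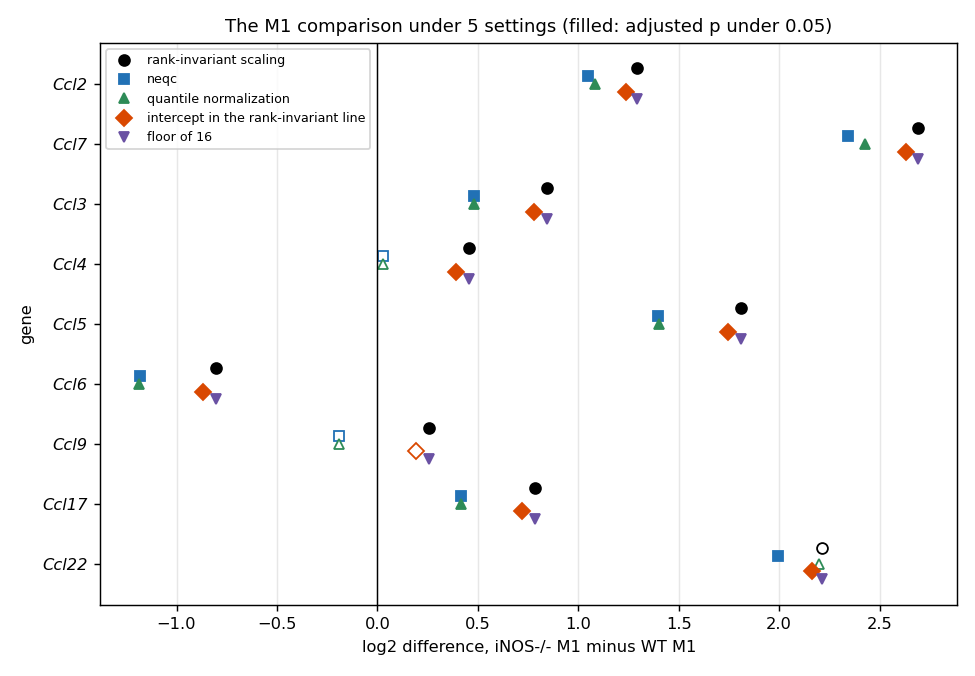
log2 difference, iNOS-/- M1 minus WT M1, for the 9 genes detected in both groups under rank-invariant scaling and 4 other settings. Filled symbols passed adjusted p under 0.05. Ccl2, Ccl3, Ccl5, Ccl7 and Ccl17 stay above 0 and Ccl6 below 0 with a call in all 5 settings, while Ccl4 falls to 0.03 and Ccl9 to -0.19 under neqc and quantile normalization.

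Many CC receptor genes were not detected. Of 15 CC receptor genes listed, all were on the array and 6 were tested. Ccr1, Ccr2, Ccr4 and Ccr8, which bind the CCR1, CCR2, CCR4 and CCR8 ligands named above, were detected on no array, nor were Ccr3, Ccr9, Ackr1 and Ackr2.

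Ccr7, which binds other ligands and guides dendritic cells to lymph nodes, was higher in iNOS-/- cells. It read 267 and 219 in WT M1 and 1967 and 1809 in iNOS-/- M1, a log2 difference of 2.96 ± 0.17 (adjusted p = 0.000271), and the log2 difference without stimulation was 3.58 ± 0.17 (adjusted p = 0.000199). Ccrl2, an atypical receptor that binds chemerin, read 526 and 517 in WT and 111 and 97.9 in iNOS-/- unstimulated cells. In M1 cells it read 845 and 929 against 2882 and 3031. It was therefore lower before stimulation (log2 difference -2.32 ± 0.10, adjusted p = 0.000159) and higher after it (1.74 ± 0.10, adjusted p = 0.000279), the same turn of direction as Ccl3. Ccr6 was detected on both unstimulated iNOS-/- arrays, at 30.9 and 39.3, and on neither of WT, at least 6.19-fold higher. The limma call (adjusted p = 0.00127) was against unstimulated WT values set to the floor, which added no spread, and does not belong to this bound. Ccr6 entered the test only through its detection on iNOS-/- arrays, so the call adds nothing to the detection pattern. Ccr1l1 and Ccr10 were each detected on 2 arrays of different groups.

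Few other CC ligands were present. Of 13 listed, 10 were on the array and 4 were tested. Between the M1 groups none of the 4 was called by limma at adjusted p under 0.05, against 48.2% of all tested probes. For Ccl24 this depended on the setting. Its log2 difference was 1.22 ± 0.47 (adjusted p = 0.0853), 1.08 under neqc with a call (adjusted p = 0.000132), and 1.37 under quantile normalization without one (adjusted p = 0.064). Ccl24, an eosinophil attractant, rose with stimulation in both genotypes, to 34.3 and 51.7 in WT M1 and to 96.7 and 98.9 in iNOS-/- M1. In WT it was not detected without stimulation and was at least 7.48-fold higher in M1. The limma log2 difference from the undetected readings was 3.95 ± 0.47 (adjusted p = 0.00307). The WT response was 1.42 under neqc and 1.40 with a floor of 16, both called but smaller than the 7.48-fold bound. In iNOS-/- cells the log2 response was 3.59 ± 0.47 (adjusted p = 0.00222), and 2.23 under neqc. Ccl27 was lower after stimulation in both genotypes, with log2 differences of -1.51 and -1.40. Ccl11 had its highest reading at 12.5, in iNOS-/- M1.

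Of 10 transcription factors known to drive CC chemokine genes, all tested, 7 were higher and Irf4 was lower in iNOS-/- M1 than in WT M1. Of all tested probes, 22.9% were called higher and 25.3% lower in that comparison. Nfkb1 read 1781 and 1872 against 4870.5 and 4895 (log2 difference 1.42 ± 0.08, adjusted p = 0.00026), and Rel, Rela, Relb and Nfkb2, the other NF-κB subunits, had log2 differences between 1.14 and 2.26. Irf1, which IFN-γ induces, had a log2 difference of 1.42 ± 0.11 (adjusted p = 0.000467). Irf5 (0.22, adjusted p = 0.127) and Stat6 (0.13, adjusted p = 0.383) were not called. Without stimulation 7 were also higher, though not the same 7, and Irf1 was lower (log2 difference -0.99 ± 0.11, adjusted p = 0.00224). Irf4 (1.27, adjusted p = 0.000769) and Irf5 (0.83, adjusted p = 0.00321) were among these 7, while Rela was not called by limma (0.13, adjusted p = 0.298). Of all tested probes, 16.7% were called higher and 15.4% lower without stimulation.

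Markers of other cells moved with some members. All 9 macrophage markers were tested. 5 were lower and 3 were higher (Adgre1, Cd14 and Mertk) in iNOS-/- M1 than in WT M1, against 25.3 and 22.9% of all tested probes. Of 11 dendritic cell markers 9 were tested, and 7 were higher and none lower in unstimulated iNOS-/- than in unstimulated WT cells, against 16.7 and 15.4% of all tested probes. In M1 cells 3 were higher in iNOS-/- and 2 were lower, Cd209a and Kmo. The summed intensity of the dendritic cell markers was 394 to 444 in WT unstimulated, 4735 to 4899.9 in iNOS-/- unstimulated, 6072 to 6207 in WT M1 and 18473 to 19639 in iNOS-/- M1 cells. Ccl2, Ccl5, Ccl7, Ccl17 and Ccl22 had the same order of groups. Il4i1 gave most of the dendritic cell sum except in WT unstimulated cells, where it read 73.5 and 77.8. Flt3, another marker of this list, was detected on no array. The 5 tested markers of dividing cells were all higher in unstimulated iNOS-/- cells and all lower in iNOS-/- M1 cells than in WT, with sums of 508 to 577, 1898 to 1918, 1651 to 1779.8 and 664 to 674 in the order just given. Granulocyte markers summed to 1229 to 1232, 1746 to 1804, 1466 to 1562 and 3929 to 4071, and Mpo and Retnlg were detected on no array. S100a8 gave most of the granulocyte sum on every array, at 920 and 933 in WT unstimulated and 2839 and 2945 in iNOS-/- M1 cells. Of 8 tested, 5 were higher and 1, Mmp8, was lower in unstimulated iNOS-/- than in unstimulated WT cells. In M1 cells 3 were higher in iNOS-/- and 0 were lower. Mast cell and basophil markers summed to at most 399 on any array, T cell markers to 148, NK cell markers to 83.8 and B cell markers to 10.5. Cd3d, Cd3e, Cd3g and Cd8a of T cells, Ncr1, Klrb1c and Nkg7 of NK cells, and Ms4a1 of B cells were detected on no array. The part of these cells in the chemokine levels was not tested.

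The genes most like a member in pattern were sought by Pearson correlation of log2 intensity over the 8 arrays, among 11208 probes detected on at least 6 arrays. The closest to Ccl7 was Cd86 (r = 0.999), a costimulatory molecule, and the closest to Ccl17 was H2-Eb1 (r = 0.999), a chain of MHC class II. Cxcl1, a neutrophil attractant, was the closest to both Ccl4 probes (r = 0.997), and P2rx4, an ATP-gated channel, to Ccl6 (r = 0.998). Since the 8 arrays fall into 4 pairs and share the scaling, these values describe group levels.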

How the data were processed

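RNA of 8 samples in 4 groups of 2, taken from the labels, was measured on Illumina bead arrays. The authors deposited intensity values per probe, averaged over beads and not normalized between arrays, and beside each intensity a p-value for detection. The submitters' notes name GenomeStudio and limma 3.14.4, and the methods name background subtraction, rank-invariant normalization, negative values set to 1 and limma. The file header states no background subtraction, but between 25.2 and 27.2% of values per array were below 0, so none was subtracted here. The names of the value columns left 0 without a sample.

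A robust fit without intercept (MASS 7.3.60.0.1) gave the factor that brought an array to the mean of all arrays, over probes whose ranks differed by less than 0.05 of the rank and lay between 0.5 and 0.9 of the number of probes. These limits were chosen here, and the scale factors ran from 0.813 to 1.3. Values under 1 were set to 1 and log2 was taken. Probes detected (p under 0.05) on at least 2 arrays, 13868 in all, entered a model of the 4 groups over all 8 arrays (lmFit and eBayes, limma 3.58.1, R 4.3.3), 2-sided, with Benjamini-Hochberg adjustment over these probes and calls at adjusted p under 0.05. The steps were tested on simulated data. Where no array of the dimmer group detected a probe, its level was replaced on each array by the lowest signal of any detected probe (or by its own value, if higher), and the fold over the mean of these levels is written "at least N-fold". A gene with several probes is counted by the brightest. The median absolute log2 difference between the 2 arrays of a group was 0.161 to 0.187 over tested probes.

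The members and the lists (other CC ligands, CC receptors, driving factors and markers of 8 cell classes) were chosen with earlier results of these data known. All members are named, as are list genes called in any comparison where they help, Nos2, and the gene most like a member for 4 members. Positions come from RefSeq, matched by gene ID for 9 members and by symbol for Ccl6. Coordinates in the deposited file were not used. Some list genes are not reported here. The alternatives were neqc, quantile normalization, a line with intercept, a floor of 16, no detection filter, detection on at least 4 arrays, the replicate number as a block, an intensity trend in eBayes, the compared arrays alone, and leaving out each array.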

Additional observations from a re-analysis of the deposited data

Results flagged for a closer look

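8 differences between the log2 responses of iNOS-/- and WT cells to M1 stimulation, counting both Ccl4 probes, were flagged because the test of the difference itself passed (limma, adjusted p under 0.05). The same test was passed by 42.0% of all tested probes, so passing it does not set these probes apart. The response was larger in iNOS-/- cells by 2.04 for Ccl3, by 0.99 for Ccl5, by 0.78 for Ccl9, and by 0.76 and 0.70 for the brighter and the dimmer probe of Ccl4. For Ccl1 the value of 2.02 equals the iNOS-/- response, since the WT arrays did not detect the gene. It was 1.29 under neqc, and the call was lost with an intensity trend (adjusted p = 0.0584). The response was smaller in iNOS-/- cells for Ccl17 (-3.44) and Ccl2 (-1.23). For Ccl17 this went with unstimulated iNOS-/- levels of 10651 and 9629, against 530.0 and 555 in WT. The Ccl2 call was lost without the detection filter (limma, adjusted p = 0.0598). It was also lost without either WT unstimulated array, and without 1 array of each other group, and the Ccl2 value stayed between -1.48 and -0.98 whichever array was left out. The call for the dimmer Ccl4 probe was lost without the first WT unstimulated, the second WT M1 or the second iNOS-/- unstimulated array.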

How the results depend on the processing

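With 2 arrays per group the fits rest on few degrees of freedom, and for Ccl1 and Ccl22 on signals near the detection limit. A lone array left in a group was assumed to vary like the other groups. Over the members, Ccr7, Ccrl2, Ccl24 and Nos2, the other settings left 533 values with the same direction and call, 33 gained a call, 26 lost one and 8 changed sign. With 1 array left out these numbers were 498, 9, 35 and 2. Why values moved was not tested.

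Between the M1 groups the dimmer Ccl4 probe was -0.13 and Ccl9 -0.19 (neither called) under both neqc and quantile normalization. The difference of responses for Ccl6 was -0.14 under both, and that of Ccl22 was 0.71 under neqc and 0.99 with a floor of 16, both called. Under neqc and quantile normalization Ccl6 and Ccl9 fell in WT, so that 7 genes rose and 2 fell, and in iNOS-/- cells 8 rose and Ccl6 fell. A floor of 16 also gave 7 and 2 in WT. Under quantile normalization 4 members differed in response, 2 each way. The median of all probes moved by over 0.1 under the line with intercept, to 0.237 between the M1 groups, -0.123 between the unstimulated groups, -0.0962 for the WT response, 0.204 for the iNOS-/- response and 0.332 for the difference of responses, and under neqc and quantile normalization it moved for the WT response, from 0.0886 to -0.0352 and -0.0619, and under the latter for the iNOS-/- response, from 0.00394 to -0.13. The share of called probes that were higher went from 47.5 to 58.4% with the intercept between the M1 groups and from 46.1 to 59.7% for the difference of responses. For the WT response it went from 59.3% to 44.4, 47.4 and 49% under neqc, quantile normalization and the intercept.

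With the replicate number as a block, 8, 9, 7, 9 and 7 members were called in the M1, unstimulated, WT, iNOS-/- and difference comparisons, against 9, 10, 7, 9 and 7 without it, the losses being Ccl9 and Ccl4. The numbers did not pair the arrays (correlations of deviations -0.0375 to 0.0247), so they are only names. Leaving out each array gave 2728 to 4448 called probes between the unstimulated groups (4459 with all arrays), with the low values for either array of both groups, and 3134 to 4881 for the WT response (4869), with the low values without either WT unstimulated array or the second WT M1 array. The Ccl6 response in iNOS-/- cells ran from -0.148 to 0.0747, with both values above 0 (0.0122 and 0.0747) when the first array of either iNOS-/- group was left out.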
